A study of Mus musculus with 4 samples.

Results

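A set of 10 genes that carry signals between melanocytes and the skin cells around them were followed in RNA sequencing of mouse dermal hyperplasia cells. They are the receptors Kit, Ednrb, Ednra, Mc1r and Met, the ligands Kitl, Edn1, Edn3 and Pomc, and the antagonist Asip. They were taken by name as the Kit, endothelin and melanocortin ligands and receptors together with the Hgf receptor Met, and all 10 had a row among the 22524 genes counted. The agouti gene carries the symbol a in the annotation used and is called Asip here.

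There were 4 libraries, 2 labelled Ezh2Y646N and 2 labelled NrasQ61K. Mice of both groups carried Tyr::NrasQ61K, which places oncogenic Nras under the tyrosinase promoter, with Tyr::CreERT2 and the reporter R26R-LSL-tdTomato, and were given tamoxifen. The Ezh2Y646N group also carried ColA1-LSL-Ezh2Y646N, a mutant of the histone methyltransferase Ezh2 that needs Cre to be switched on. tdTomato-positive cells were sorted from pre-tumorigenic hyperplasia, and the age of the mice is not given in the sources used here. The labels do not say whether libraries of a group came from separate mice, so each p-value covers only the spread seen among these libraries, part of which may be technical. The Tyr promoter limits Cre and Nras to cells that use it, of which melanocytes are the main ones in skin.

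In skin, keratinocytes and dermal cells make ligands that melanocytes need to survive, move and make pigment. Kit ligand acts on the receptor tyrosine kinase Kit, and endothelins act on G protein-coupled receptors, of which Ednrb is the one used by melanocytes and their precursors. Melanocortins cut from Pomc raise cyclic AMP through Mc1r and turn pigment dark, while Asip blocks Mc1r and turns it yellow. The hepatocyte growth factor Hgf, made by mesenchymal cells, acts on Met.

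Edn1 and Edn3 encode 2 of the endothelin ligands, and the stretch that codes for the mature peptide is shown because these close copies had unlike levels in the libraries. Each run was read from GENCODE M21 transcripts on the coding strand, 5′ to 3′, by the spacing of its cysteine codons, which are in capitals.
Edn1: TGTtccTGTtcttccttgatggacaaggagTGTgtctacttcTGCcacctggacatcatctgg
Edn3: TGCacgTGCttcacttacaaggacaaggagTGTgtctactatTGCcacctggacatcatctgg
The 2 stretches of 63 bases matched at 50 positions, and 15 of their 21 codons gave the same residue, including all 4 cysteines. Away from this stretch the genes lie on different chromosomes, Edn1 on chromosome 13 (42301476 to 42307990, GRCm38) and Edn3 on chromosome 2 (174760619 to 174784042).

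The promoter windows of Edn3, Ednra and Mc1r are shown because these 3 genes had the largest fold changes among those whose groups did not overlap. They are RefSeq windows on GRCm38.p6, from 250 bases before to 50 after the gene's start, 5′ to 3′ on the gene's strand. In the windows of Edn3 and Ednra the capitals mark CpG dinucleotides, since mammalian Polycomb complexes, to which Ezh2 belongs, sit mainly at CpG-rich promoters. In that of Mc1r they mark CATGTG on either strand, a core bound by Mitf, the regulator of the melanocyte lineage.
Edn3, chr2:174760369-174760668, plus strand: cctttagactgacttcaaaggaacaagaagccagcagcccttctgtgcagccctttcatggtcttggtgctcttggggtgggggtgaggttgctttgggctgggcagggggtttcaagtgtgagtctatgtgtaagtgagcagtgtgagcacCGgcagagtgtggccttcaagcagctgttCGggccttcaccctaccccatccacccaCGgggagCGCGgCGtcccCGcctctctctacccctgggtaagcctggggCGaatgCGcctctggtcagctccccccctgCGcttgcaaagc
Ednra, chr8:77724403-77724702, minus strand: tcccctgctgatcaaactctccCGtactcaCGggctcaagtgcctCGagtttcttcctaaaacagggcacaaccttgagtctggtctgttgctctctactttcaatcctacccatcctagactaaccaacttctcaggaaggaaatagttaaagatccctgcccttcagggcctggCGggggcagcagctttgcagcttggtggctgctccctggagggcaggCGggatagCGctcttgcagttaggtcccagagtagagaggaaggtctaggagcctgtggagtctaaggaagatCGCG
Mc1r, chr8:123406832-123407131, plus strand: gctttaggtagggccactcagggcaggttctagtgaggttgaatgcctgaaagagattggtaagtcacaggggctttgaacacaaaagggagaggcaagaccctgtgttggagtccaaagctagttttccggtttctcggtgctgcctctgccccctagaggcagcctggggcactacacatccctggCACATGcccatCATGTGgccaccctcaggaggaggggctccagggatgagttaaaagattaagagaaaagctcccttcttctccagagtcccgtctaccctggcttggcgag
The window of Edn3 held 10 CpG and that of Ednra 8, close to the median of 7 over 32851 windows of this length, which is a description and no measure of Polycomb binding. Mc1r had 4 CpG. Among the 10 genes CpG counts ran from 3 for Asip to 34 for Met. CATGTG, searched on both strands, was found 2 times in the Mc1r window and in no window of the other 9 genes, and it occurs in 14.2% of all windows. CACGTG, its own reverse complement and a separate 6-base run, was found once, in the Met window, against 7.15% of all windows. TATAAA, searched on both strands, was found in the windows of Kitl and Pomc, against 13.6% of all windows.

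Total counts per library ranged from 14808801 to 20600297. Levels are given as CPM, counts scaled to a common library size with edgeR's TMM factors. Fold changes set Ezh2Y646N over NrasQ61K on the log2 scale and come from edgeR's quasi-likelihood test with Benjamini-Hochberg adjustment over 14265 genes. Ezh2 was at 135 and 91.6 CPM in the Ezh2Y646N libraries and at 171 and 75.1 CPM in the NrasQ61K libraries. Counts per gene do not tell mutant from endogenous Ezh2, so this gene did not check the labels.

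The sort was checked against markers of the cell types it could hold. The 12 melanocyte markers, which include the pigment enzyme gene Dct, summed to 3943 and 3998 CPM in the Ezh2Y646N libraries and to 2612 and 3411 CPM in the NrasQ61K libraries. None was at 0 in any library. Dct itself was at 2203 and 2757 CPM against 1486 and 2002 CPM, and Tyrp1, the other abundant marker, at 459 and 272 against 299 and 407 CPM. Neither passed the threshold, with log2 fold changes of 0.51 and 0.05.

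Keratinocyte markers were abundant in all 4 libraries. Suprabasal epidermis markers (11 with a row) summed to 44314 and 31487 CPM against 3584 and 9315 CPM, and 4 of the 10 tested rose, against 1.10% of all genes tested. Those 4 were Flg2 (log2 fold change 4.20), Lor (3.66), Dsc1 (2.53) and Ivl (1.84), genes of the cornified layer and its junctions, named here after their values were seen. The abundant keratins Krt10 (2.78, with an adjusted p of 0.0514 in edgeR) and Krt1 (2.30, 0.0689) missed the threshold there and passed in DESeq2, in limma voom and without either NrasQ61K library. Basal keratinocyte markers (8) summed to 15701 and 24049 CPM against 11863 and 26325 CPM. Markers of the hair follicle (16) summed to 731 and 387 CPM against 3281 and 1756 CPM, and 6 of 16 fell, against 0.673% of all genes tested. Of these, Tchh and Krt71, structural genes of its inner root sheath, were at -2.51 and -2.43. Leaving out Ezh2Y646N replicate 2 or either one of the NrasQ61K libraries ended both calls.

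Dermal markers were lower in the Ezh2Y646N libraries too. Dermal papilla markers (13) summed to 247 and 206 CPM against 806 and 381 CPM, and 2 of 13 fell, Rspo4 (-4.70) and Corin (-3.75), while the abundant Lef1 and Vcan were at -1.68 and -1.76. Fibroblast markers (13) summed to 959 and 2194 CPM against 4197 and 2521 CPM, and 3 of 13 fell, Dpt (-2.08), Pdgfrb (-1.58) and Cd34 (-1.53), while the collagens Col1a1 and Col3a1 were at -1.13 and -1.20. All 3 calls were lost in limma voom, and those of Pdgfrb and Cd34 also with edgeR's RLE factors in place of TMM. Endothelial markers (12) summed to 197 and 138 CPM against 294.0 and 293.5 CPM, and 0 of 12 passed the threshold in edgeR, with 4 at an unadjusted p under 0.05 and 1 called lower in DESeq2. Plvap was at -1.20 and Pecam1 at -0.87. The abundant genes Lef1, Vcan, Col1a1, Col3a1, Plvap and Pecam1 did not pass, and Rspo4, Dpt, Pdgfrb and Cd34 were named after their values were seen. With 1 library left out 2 to 10 suprabasal, 1 to 11 hair follicle, 2 to 6 dermal papilla and 0 to 5 fibroblast markers passed, each list with its fewest calls without an Ezh2Y646N library and its most without an NrasQ61K library. Pericyte and smooth muscle markers (10) summed to 380 and 411 CPM against 312 and 455 CPM, with 1 of 9 past the threshold, Acta2 (-1.75). Schwann cell and glia markers (10) summed to 1047 and 446 against 279 and 456 CPM. The call of Acta2 was lost without either Ezh2Y646N library. Macrophage and Langerhans cell markers (12) summed to 95.2 and 211 against 222 and 557 CPM. In bulk libraries fewer cells of a type and less RNA per cell cannot be told apart. Several of the 10 genes are made by these other cells, and the part of cell composition in the values below was not tested except where a value is given.

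**Figure D1:**
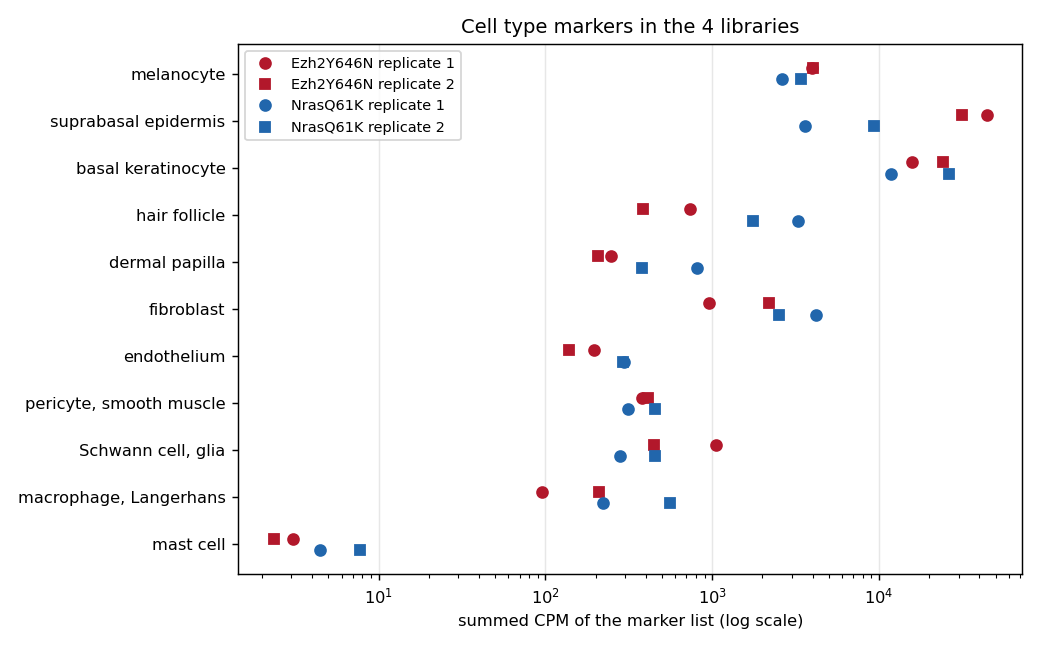
Summed CPM of 11 marker lists (rows) on a log axis, 1 point a library, Ezh2Y646N in red and NrasQ61K in blue. Suprabasal epidermis sums were 44314 and 31487 in the Ezh2Y646N libraries against 3584 and 9315 in the NrasQ61K libraries. Melanocyte sums were also higher in both Ezh2Y646N libraries. Hair follicle, dermal papilla, fibroblast, endothelial, macrophage and Langerhans, and mast cell sums were lower in both Ezh2Y646N libraries, and the other lists overlapped.

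None of the 10 genes passed the threshold. One, Pomc, had too few counts to be tested, and the other 9 were tested, 4 with a positive log2 fold change and 5 with a negative one. Over all genes tested 1.77% passed, 1.10% higher and 0.673% lower in Ezh2Y646N, so a count of 0 among 9 lies near this background. An unadjusted p under 0.05 was found for 2 of the 9, Ednra and Edn3, against 14.3% of all genes. DESeq2 and limma voom also called 0 of these genes. With no filter on low counts 4 of the 10 passed (Kitl, Edn1, Edn3 and Ednra), each lower in Ezh2Y646N. In that fit 1302 of 18725 genes passed, 616 of them lower. Without NrasQ61K replicate 1 the log2 fold changes of Edn1, Kitl and Ednra were -1.94, 0.13 and -0.60. Without NrasQ61K replicate 2 they were 0.09, -1.73 and -1.44. The median log2 fold change over the 9 genes was -0.35 with a median SE of 0.32, against -0.04 over all genes tested. The groups did not overlap for 4 of the 9, namely Ednra, Edn3 and Kit on the lower side and Mc1r on the higher side, while 44.2% of all tested genes did not overlap, 23.1% on the lower side and 21.1% on the higher side. With 2 libraries against 2 an exact permutation test of a single gene cannot give a 2-sided p below 0.333.

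**Figure D2:**
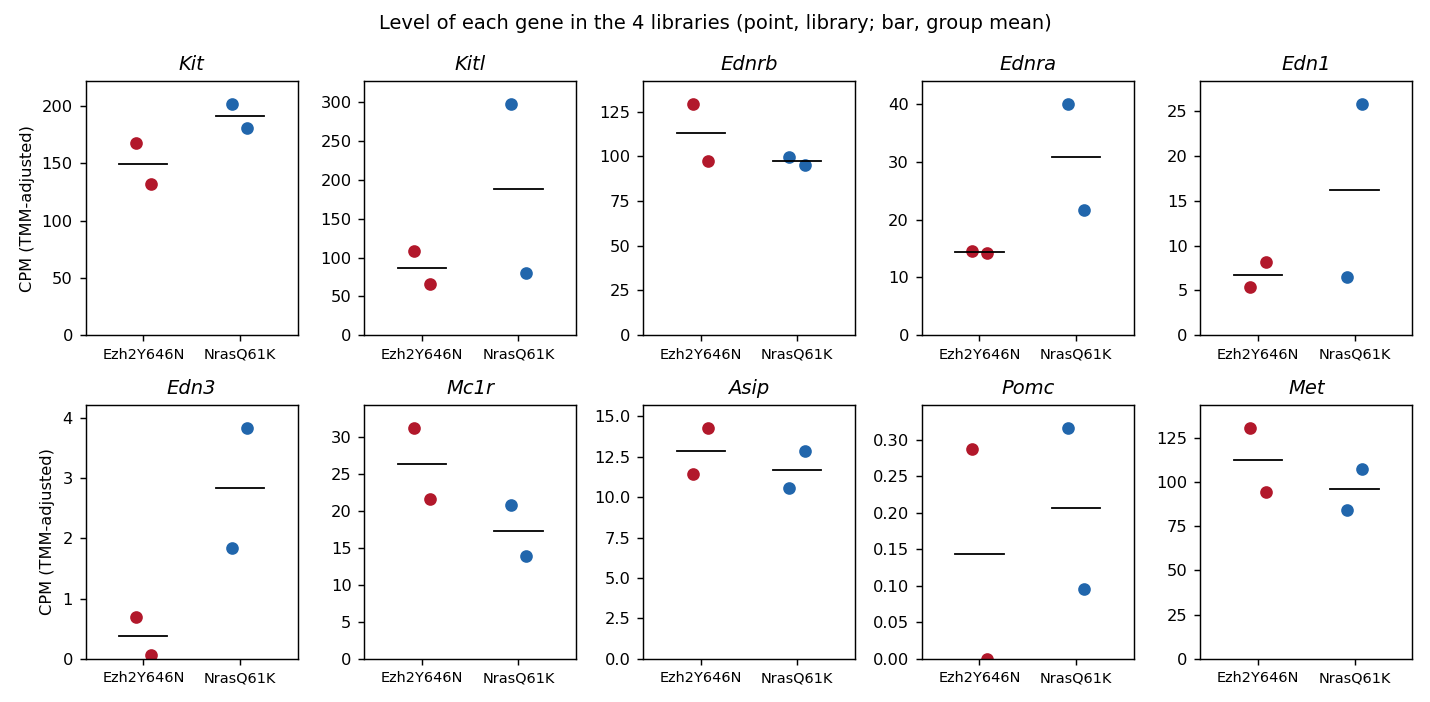
CPM of each of the 10 genes (linear axes from 0), with 1 point a library, Ezh2Y646N in red on the left and NrasQ61K in blue on the right, and a bar at the group mean. Ednra, Edn3 and Kit were lower and Mc1r higher in both Ezh2Y646N libraries, and a single NrasQ61K library stood high for Kitl (298 CPM) and for Edn1 (25.8 CPM).

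Levels between genes were compared as CPM per kilobase of exon, the mean over the 4 libraries, which for a gene with several isoforms depends on the annotated length. The order was Ednrb (24.7), Kitl (23.3), Kit (19.1), Met (13.6), Asip (10.5), Mc1r (6.002), Edn1 (5.35), Ednra (4.13), Edn3 (0.391) and Pomc (0.133). Most neighbours in this order overlapped over the libraries. The 2 steps with no overlap were from Asip (lowest library 9.03) to Mc1r (highest library 8.58) and from Ednra (lowest 2.59) to Edn3 (highest 0.933). Among 22214 genes with a length, Ednrb lay above 91.8%, Kit above 88.6% and Mc1r above 68.1%, while Edn3 and Pomc lay above 40.3% and 34.1%.

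Of the receptors, Kit, the tyrosine kinase on which melanocyte survival and migration depend (chromosome 5, 75574916 to 75656722), was at 168 and 132 CPM in the Ezh2Y646N libraries, against 202 and 180 CPM in the NrasQ61K libraries. Both Ezh2Y646N libraries were below both NrasQ61K libraries. Group means ± SD (n = 2 each) were 150 ± 25.4 CPM and 191 ± 14.99 CPM. The fold change was -0.35 on the log2 scale (SE 0.23, 95% interval -0.88 to 0.18), with an adjusted p of 0.585 in edgeR. Mast cells also use Kit, and the 9 mast cell markers were scarce, with sums of 3.05 and 2.35 CPM against 4.42 and 7.72 CPM. Of these markers 2 and 6 were at 0 in the Ezh2Y646N libraries, against 2 and 2 in the NrasQ61K libraries. The part of mast cells in the level of Kit was not tested.

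The level of Kit relative to the other melanocyte receptors was also compared, within each library and per kilobase. Kit stood at 0.621 and 0.649 times Ednrb in the Ezh2Y646N libraries, against 0.968 and 0.908 times in the NrasQ61K libraries. It stood at 2.194 and 2.498 times Mc1r in the Ezh2Y646N libraries, against 3.97 and 5.32 times in the NrasQ61K libraries. Neither pair of ratios overlapped between groups. Kit was lower and Mc1r higher in both Ezh2Y646N libraries, so their ratio had to separate. Of the other ratios taken, Edn1 to Edn3, Edn3 to Ednrb, Ednrb to Ednra, Ednrb to Mc1r and Met to Kit did not overlap either. Those of Kitl to Kit, Edn1 to Ednrb and Asip to Mc1r overlapped. The ratios, chosen after single values were known, were given no test, and the share over all gene pairs was not computed.

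Ednrb, the endothelin receptor of melanocytes and their neural crest precursors (chromosome 14, 103814625 to 103844402), was at 129 and 97.2 CPM, against 99.8 and 95.2 CPM. The groups overlapped, and the log2 fold change was 0.22 (SE 0.23, 95% interval -0.32 to 0.76, with an adjusted p of 0.785 in edgeR). Met, the Hgf receptor, which keratinocytes carry as well (chromosome 6, 17463800 to 17573980), was at 131 and 94.2 CPM, against 84.1 and 108 CPM. It too overlapped, with a log2 fold change of 0.23 (SE 0.26, 95% interval -0.36 to 0.82) and 0.794 as its adjusted p in edgeR. Both intervals include 0, so a difference in either receptor was not detectable with 4 libraries.

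Mc1r, the melanocortin receptor that sets the pigment type (chromosome 8, 123407107 to 123410744), was at 31.2 and 21.5 CPM, against 20.7 and 13.9 CPM. Both Ezh2Y646N libraries were above both NrasQ61K libraries, though by a narrow margin between the nearest 2. Group means ± SD (n = 2 each) were 26.4 ± 6.83 CPM and 17.3 ± 4.86 CPM, for a difference of 0.61 on the log2 scale (SE 0.32, with an adjusted p of 0.468 in edgeR). Of the 9 tested genes Mc1r had the highest fold change. Melanocyte markers summed higher in the same libraries, as given above.

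Ednra, the endothelin receptor of smooth muscle and dermal mesenchyme (chromosome 8, 77663031 to 77724464), was at 14.5 and 14.2 CPM, against 40.0 and 21.7 CPM. Both Ezh2Y646N libraries were nearly equal and below both NrasQ61K libraries, which differed 1.84-fold from each other. The log2 fold change was -1.11 (SE 0.34, 95% interval -1.89 to -0.32), the unadjusted p 0.0122 and edgeR's adjusted p 0.17. Fibroblast, dermal papilla and endothelial marker sums were lower in the same libraries. Pericyte and smooth muscle marker sums overlapped between the groups, at 380 and 411 CPM against 312 and 455 CPM. In that list Acta2 was called lower at -1.75, a call lost without either Ezh2Y646N library. Of the 9 tested genes of that list 6 had a positive log2 fold change and 3 a negative one. The part of any of these cells in the value of Ednra was not tested. Without NrasQ61K replicate 1, which had the highest fibroblast and dermal papilla sums, the log2 fold change of Ednra was -0.60. Without NrasQ61K replicate 2 it was -1.44.

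Of the ligands, Kitl, which encodes the ligand of Kit and is made by keratinocytes, the dermal papilla and other dermal cells (chromosome 10, 100015630 to 100100416), was at 108 and 65.6 CPM, against 298 and 79.6 CPM. NrasQ61K replicate 1 stood 3.74-fold above its replicate, and the groups overlapped. The log2 fold change was -1.12 (SE 0.55, with an adjusted p of 0.431 in edgeR), and it rested on that library. Without NrasQ61K replicate 1 the value was 0.13, and without NrasQ61K replicate 2 it was -1.73. In NrasQ61K replicates 1 and 2 dermal papilla markers summed to 806 and 381 CPM, of which Lef1 alone was 387 and 98.9 CPM. Hair follicle markers summed to 3281 and 1756 CPM there. Keratinocyte markers went the other way, with basal sums of 11863 and 26325 CPM and suprabasal sums of 3584 and 9315 CPM. The part of any of these cells in Kitl was not tested. Counts per gene do not tell the membrane-bound isoform of Kit ligand from the one that is shed. Per kilobase, Kitl stood at 0.973 and 0.750 times Kit in the Ezh2Y646N libraries, against 2.23 and 0.665 times in the NrasQ61K libraries.

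Edn1, the endothelin released by endothelium and keratinocytes, was at 5.35 and 8.15 CPM, against 6.51 and 25.8 CPM. Here NrasQ61K replicate 2 stood 3.96-fold above its replicate, and the groups overlapped. The log2 fold change was -1.27 (SE 0.60, with an adjusted p of 0.412 in edgeR). Without NrasQ61K replicate 2 it was 0.09, and without NrasQ61K replicate 1 it was -1.94. Endothelial markers summed to 294.0 CPM in NrasQ61K replicate 1 and 293.5 CPM in replicate 2, and 6 of the 12 were higher in replicate 2. Basal keratinocyte markers summed to 11863 and 26325 CPM and macrophage and Langerhans cell markers to 222 and 557 CPM in these libraries, and the part of endothelial or other cells in Edn1 was not tested. The libraries that stood high for Kitl and for Edn1 were therefore different ones.

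Edn3, the endothelin that the neural crest and melanoblasts need, was scarce, with 12 and 1 counts in the Ezh2Y646N libraries against 29 and 80 counts in the NrasQ61K libraries. In CPM these were 0.690 and 0.0691, against 1.83 and 3.84. Both Ezh2Y646N libraries were below both NrasQ61K libraries. The ratio of summed levels was 0.137, with an exact 95% interval of 0.0708 to 0.245 that covers counting error only. The fitted log2 fold change was -2.84 (SE 0.98), the unadjusted p 0.021 and edgeR's adjusted p 0.226. Edn3 passed the filter on low counts through the NrasQ61K libraries, in which it was higher, so its place among the lower genes is a description. Left out 1 at a time, the libraries gave values between -5.22 and -2.04, and without Ezh2Y646N replicate 1 the remaining Ezh2Y646N library held the single count.

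The 2 endothelin ligands shown above thus differed in level in every library. Per kilobase, Edn1 stood at 14.9 and 227 times Edn3 in the Ezh2Y646N libraries, against 6.83 and 12.9 times in the NrasQ61K libraries, and the value of 227 rests on 1 count of Edn3. Between the 2 receptors, Ednrb stood at 11.5 and 8.82 times Ednra in the Ezh2Y646N libraries, against 3.20 and 5.63 times in the NrasQ61K libraries. These ratios did not overlap between the groups, as Ednra alone did not, while Ednrb alone overlapped. The ratio was given no test, and the share over all gene pairs was not computed.

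Pomc, the precursor of the melanocortins (chromosome 12, 3954951 to 3960642), had 5 and 0 counts in the Ezh2Y646N libraries, against 5 and 2 counts in the NrasQ61K libraries. It was not tested. Taken as at most 3 counts, the count of 0 allows up to 0.207 CPM, and the highest library, NrasQ61K replicate 1, was at 0.316 CPM with an exact 95% interval of 0.103 to 0.737, for counting error only. Asip, the antagonist of Mc1r that dermal papilla cells secrete (chromosome 2, 154791402 to 155051012), was at 11.4 and 14.3 CPM, against 10.6 and 12.9 CPM. The groups overlapped, and the log2 fold change was 0.13 (SE 0.31, 95% interval -0.58 to 0.85, with an adjusted p of 0.914 in edgeR). Dermal papilla marker sums were lower in both Ezh2Y646N libraries, and their part in the level of Asip was not tested. Exons of Asip overlap those of Raly on the same strand, where Raly had 2153 and 1631 counts against 2043 and 2530, so the counts of Asip are uncertain. Genes on the opposite strand, not used here, overlap exons of Edn1, Ednra and Mc1r.

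**Figure D3:**
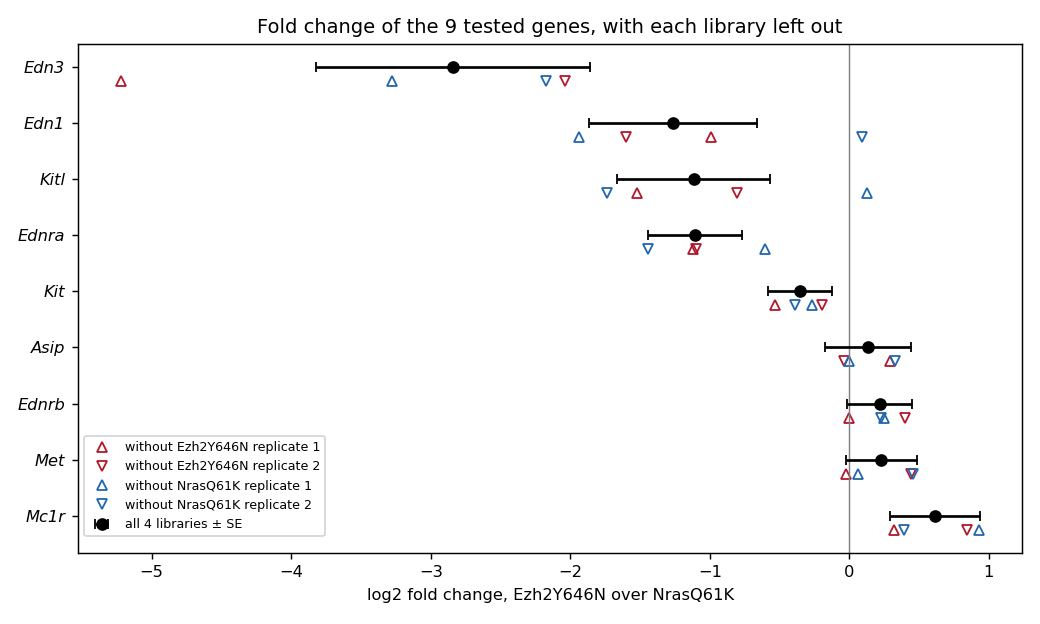
Log2 fold change of the 9 tested genes (rows), Ezh2Y646N over NrasQ61K, with all 4 libraries (black, bar ± SE) and with each library left out (triangles). Kitl was at 0.13 without NrasQ61K replicate 1 and Edn1 at 0.09 without NrasQ61K replicate 2, while Edn3, Ednra and Kit were below 0 and Mc1r above 0 with any library left out.

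Since melanocyte marker sums differed between the groups, levels were also given per 1000 CPM of melanocyte markers. Kit was then at 42.5 and 33.0 in the Ezh2Y646N libraries, against 77.2 and 52.9 in the NrasQ61K libraries. Ednrb was at 32.8 and 24.3, against 38.2 and 27.9, and Mc1r at 7.92 and 5.39, against 7.94 and 4.06. On this scale Ednrb and Mc1r overlapped between the groups. Kit had to separate, since Kit was lower and the marker sums were higher in both Ezh2Y646N libraries. The share of all genes that did not overlap on this scale was not computed. Dct, at 2203 and 2757 CPM against 1486 and 2002 CPM, made up most of each marker sum. A fit scaled in this way shifts all genes together, and their median log2 fold change was -0.47. On this scale Mc1r was at 0.15 with an adjusted p of 0.803 in edgeR, against 0.61 above. Ednra was at -1.58 with an adjusted p of 0.035, Kit at -0.78 with an adjusted p of 0.184 and Ednrb at -0.21. The share of all genes that passed the threshold in this fit was not computed. Relative to the median the values were 0.62 for Mc1r, -1.12 for Ednra, -0.32 for Kit and 0.26 for Ednrb, which takes the common shift out again and so by construction lies near the values above.

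Genes that work with these ligands and receptors were followed in 5 lists of 124 tested genes, of which 1 rose and 3 fell in edgeR with adjustment over all genes tested, against 1.10% higher and 0.673% lower over those genes. With Ezh2Y646N replicate 1 left out 2 passed, and with NrasQ61K replicate 2 left out 19 passed. In the Kit list of adaptors, phosphatases and ligand sheddases, none rose and 1 of 24 fell, and the median was -0.17. The one that fell was Mmp9, a metalloproteinase that releases Kit ligand in bone marrow, at 1.84 and 1.04 CPM against 9.23 and 10.6 CPM. Its log2 fold change was -2.77 (SE 0.47, adjusted p = 0.0375). The call of Mmp9 was lost in limma voom and without either Ezh2Y646N library.

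In the endothelin list of converting and degrading enzymes and signal transducers, 1 of 16 rose and none fell, and the median was -0.30. The one that rose was Mme, neprilysin, a membrane peptidase that degrades endothelins and other peptides. It was at 120 and 91.4 CPM against 12.8 and 19.1 CPM, a log2 fold change of 2.73 (SE 0.30, with an adjusted p of 0.022 in edgeR). Ece1, which makes mature endothelin from its precursor and was named after its values were seen, was at 324 and 436 CPM against 313 and 730 CPM, with an adjusted p of 0.712.

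In the melanocortin list of processing enzymes, receptors and cyclic AMP genes, none of 32 rose and 1 fell, and the median was -0.16. It was Corin, a serine protease that in mice restrains agouti signalling from the dermal papilla, at 2.47 and 2.21 CPM against 42.4 and 20.9 CPM. The log2 fold change of Corin was -3.75 (SE 0.43, with an adjusted p of 0.022 in edgeR). Corin is also a dermal papilla marker and counts in that sum. Asip itself did not differ beyond the spread between libraries, as given above. The melanocortin receptor genes Mc2r, Mc3r and Mc4r had no count in any library.

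No gene of the Hgf-Met list passed, with a median of -0.01 over 13 genes and 3 with an unadjusted p under 0.05, against 14.3% of all genes. Those 3 were St14, matriptase, which can activate Hgf (-0.99), Mst1, the ligand related to Hgf (1.17), and its receptor Mst1r (0.79). Hgf itself, the ligand of Met, was named after its values were seen and was scarce, at 1.38 and 0.207 CPM against 1.07 and 1.01 CPM. It overlapped between the groups, with an adjusted p of 0.926 in edgeR. Among 39 other paracrine genes of melanocytes none rose and 1 fell, against 1.77% called over all genes tested. Their median was -0.55, and 15 had an unadjusted p under 0.05, against 14.3% of all genes. The one that fell was Ret, the receptor tyrosine kinase of the Gdnf family, at 3.62 and 3.66 CPM against 19.2 and 43.3 CPM. Its log2 fold change was -3.10 (SE 0.44, adjusted p = 0.0293), and the call was lost in limma voom and without Ezh2Y646N replicate 1. The lists share their libraries with the marker lists above, and which cells these RNAs came from was not measured.

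**Figure D4:**
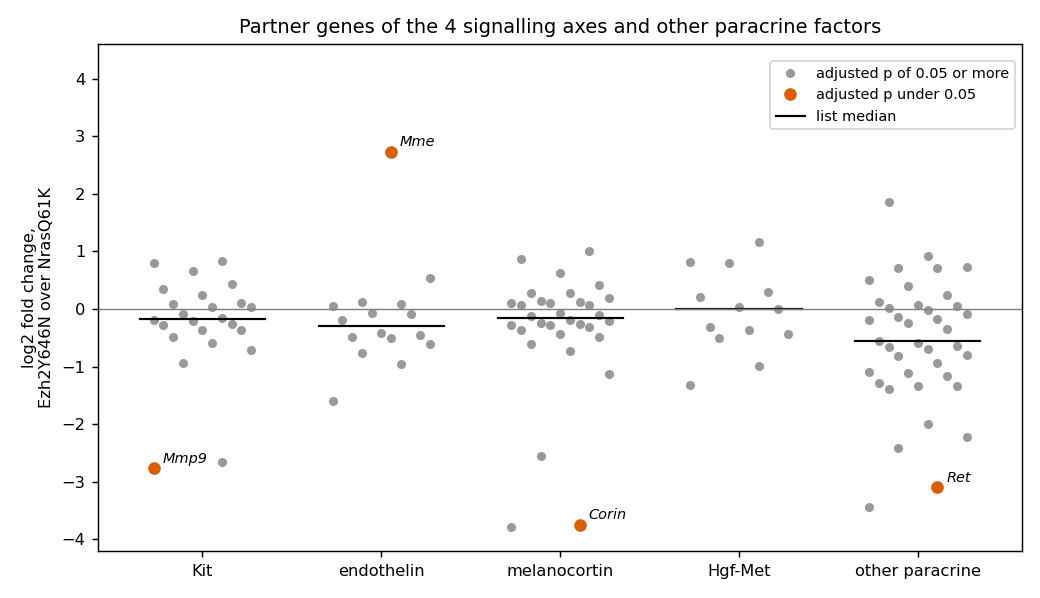
Log2 fold change of the 124 tested partner genes in 5 lists (columns), Ezh2Y646N over NrasQ61K, 1 point a gene, with the list median as a bar and genes past an adjusted p of 0.05 in orange. Mme was above 0 and Mmp9, Corin and Ret below 0, and the medians lay between -0.55 and -0.01.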

How the data were processed

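RNA was sequenced from 4 libraries of sorted tdTomato-positive mouse skin cells, made per the labels' protocols with a column kit for small samples and a strand-specific total RNA kit with ribosomal RNA removal. The deposited values are raw read counts per Ensembl gene in 22524 rows, with no normalization. Per the submitters' processing notes the build was GRCm38 and the tools included STAR 2.5.4b, featureCounts, Trimmomatic, edgeR and bcl2fastq 2.19, with no roles stated. The sources used here give neither annotation release nor strand setting, so reads of overlapping genes may be split or lost. Symbols, positions (1-based) and exon lengths came from GENCODE M21 on GRCm38, in which 22214 identifiers were found and 310 were not.

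Tests used edgeR 4.0.16 (R 4.3.3) (filterByExpr with a minimum of 10 counts and 15 in all, TMM scaling, robust quasi-likelihood fit with group as its term, 2 residual degrees of freedom), with a threshold of 0.05 on p-values adjusted over all genes tested. The script was tested on simulated data. SEs and intervals came from the fold change and its F statistic. This fit had no replicate block, since the labels do not say that the numbers pair libraries, and a fit with the block was an alternative. Replicates differed by more than counting noise (chi-square per degree of freedom 42.5 and 92.2). Totals of 14808801 to 20600297 set the counting precision, and reads have no molecular identifiers.

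The 10 genes and all lists were chosen with earlier results of these data known. From each partner list the genes past the threshold were named, or the 3 of lowest p, and from 6 of the 11 marker lists the 2 genes of highest level. The other marker lists are given as sums. Called markers of lists with at most 5 calls were added after their values were seen, except 1 that is not reported here. Of the marker genes 2 are not analysed here. Alternatives were DESeq2 1.42.0, limma voom 3.58.1, edgeR's RLE factors in place of TMM, no filter, a fit that was not robust and the replicate block. Further ones were keratin, keratin-associated, mitochondrial and haemoglobin genes left out by name, scaling to melanocyte markers, and each library left out.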

Additional observations from a re-analysis of the deposited data

How the results depend on the processing

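Over all genes tested, 253 genes passed the threshold. The number was 883 in DESeq2, 1302 with no filter on low counts, 1337 with the replicate block, and 92 to 1123 with 1 library left out. Of the 10 genes, 0 passed, against 4 with no filter (Kitl, Edn1, Edn3 and Ednra, all lower), 3 with the replicate block (Kitl, Edn3 and Ednra, all lower) and 0 to 2 with 1 library left out. Of the partner genes 4 passed, against 14 in DESeq2, 2 in limma voom, 24 with no filter, 28 with the replicate block and 2 to 19 with 1 library left out. These counts leave out the fit scaled to melanocyte markers, in which Ednra passed with an adjusted p of 0.035 in edgeR. The share of all genes that passed in that fit was not computed. The numbers 1 and 2 of the libraries are not stated to pair them. Over genes, the correlation of same-numbered libraries' deviations from their group means was 0.14. With 2 libraries a group, numbers 1 and 2 give this same value by construction. It cannot settle the pairing, so the block values are given here alone. The causes of these differences were not tested.

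The direction of Ednra, Edn3, Kit and Mc1r held under every alternative run. With 1 library left out, values ran from -1.73 to 0.13 for Kitl, from -1.94 to 0.0913 for Edn1, from -0.0033 to 0.40 for Ednrb, from -0.0394 to 0.33 for Asip (-0.0005 without NrasQ61K replicate 1), from -0.0246 to 0.46 for Met, from -0.94 to 0.32 for Ece1, from -2.29 to 0.40 for Hgf and from -0.38 to 0.37 for Tyrp1 (-0.16 without NrasQ61K replicate 1), so these 8 reversed without 1 or 2 of the libraries. Scaled to melanocyte markers, where all genes shifted together, Ednrb was at -0.21, Asip at -0.27, Met at -0.17 and Tyrp1 at -0.34. The hair follicle genes Tchh and Krt71 lost their calls without Ezh2Y646N replicate 2 and without NrasQ61K replicate 1 or 2. Both also lost them with edgeR's RLE factors, and Tchh in the fit that was not robust. Depth limits Edn3 and Pomc, which rest on few counts.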
